A study of Mus musculus with 3 samples.

Results

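Genes of adrenergic signalling, from the receptor to the enzyme that makes cyclic AMP (cAMP), were examined in the heart of C57BL/6 mice. The list held 8 genes, the receptors Adrb1, Adrb3, Adra1a and Adra1b, the receptor kinases Grk2 and Grk5, and the adenylyl cyclases Adcy5 and Adcy6. A gene was taken from the probes that carry exactly 1 gene symbol in the platform annotation, as the mean of their log2 expression values. By this rule 4 of the 8 genes were measured, Adra1b, Grk5, Adcy5 and Adcy6, each by 1 probe, out of 19505 genes in all. Adrb1, Adrb3, Adra1a and Grk2 were matched to no such probe and are not analysed here. Heart RNA was hybridized to 3 Affymetrix arrays, 1 for each group. The AAC + DAPA group underwent abdominal aortic constriction (AAC), in which the aorta is tied over a needle so that the heart pumps against a raised pressure, and then drank water with dapagliflozin (DAPA), which blocks the glucose transporter SGLT2 of the kidney, for 12 weeks (25 mg/kg daily). The AAC group underwent the same constriction and was given saline for the same time, and the sham group was operated without ligation and was also given saline. All mice are labelled wild type and male, with an age of 10 weeks given for the operation, before the 12 weeks of treatment, and the sources used here do not say whether an array holds RNA of 1 mouse or of several. Since each group has 1 array, no difference could be checked against replicates and none was tested. A gene is called higher or lower where its values on 2 arrays differ by 1.5-fold or more.

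Noradrenaline and adrenaline reach the cardiac myocyte through beta receptors, which act through the stimulatory G protein on adenylyl cyclase, and through alpha-1 receptors, which act through Gq on phospholipase C. Adenylyl cyclase makes cAMP, which activates protein kinase A (PKA) and so speeds and strengthens contraction and relaxation. Receptor kinases phosphorylate the stimulated receptor, arrestins then bind it, and phosphodiesterases break cAMP down, and loss of beta receptor responsiveness is a well known feature of the failing heart.

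Of the 4 genes, Adra1b and Grk5 were lower in both constricted hearts than in the sham heart, and Adcy5 and Adcy6 lay within 1.5-fold in every comparison. The genes lie on different chromosomes of the mouse assembly GRCm38.p6. Adra1b spans chr11:43774605-43901250, Grk5 chr19:60889560-61095968, Adcy5 chr16:35154494-35305743 and Adcy6 chr15:98589978-98610287. Promoter windows, from 250 bases before to 50 bases after an annotated start, are shown for the genes that were lower, Adra1b (2 starts) and Grk5, and for Adcy5, which was not. The starts used lie inside the gene spans above, not at their ends. The windows come from RefSeq with the build GRCm38.p6, which holds a window for 3 of the 4 measured genes. Capitals mark 5 motifs searched on both strands, the core of the cAMP response element TGACG, the E-box CACGTG, the GC box GGGCGG, the CCAAT box CCAAT and the TATA box TATAAA. No match overlapped another.
Adra1b, chr11:43901188-43901487, minus strand: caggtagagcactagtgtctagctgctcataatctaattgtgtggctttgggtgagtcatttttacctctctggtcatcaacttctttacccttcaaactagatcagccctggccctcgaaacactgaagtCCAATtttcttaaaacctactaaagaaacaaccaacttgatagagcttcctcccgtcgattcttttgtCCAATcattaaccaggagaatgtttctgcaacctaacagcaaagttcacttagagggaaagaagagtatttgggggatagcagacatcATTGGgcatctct
Adra1b, chr11:43836440-43836739, minus strand: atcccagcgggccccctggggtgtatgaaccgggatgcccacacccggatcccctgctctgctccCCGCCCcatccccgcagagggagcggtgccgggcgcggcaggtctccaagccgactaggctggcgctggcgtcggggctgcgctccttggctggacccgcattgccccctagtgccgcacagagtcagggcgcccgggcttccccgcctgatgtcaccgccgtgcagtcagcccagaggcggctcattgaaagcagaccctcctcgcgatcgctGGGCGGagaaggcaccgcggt
Grk5, chr19:60889499-60889798, plus strand: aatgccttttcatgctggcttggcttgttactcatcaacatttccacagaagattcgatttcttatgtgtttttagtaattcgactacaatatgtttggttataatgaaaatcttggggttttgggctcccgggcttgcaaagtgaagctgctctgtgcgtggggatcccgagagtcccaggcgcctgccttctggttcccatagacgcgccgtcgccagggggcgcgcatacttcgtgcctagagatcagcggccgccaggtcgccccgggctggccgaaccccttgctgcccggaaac
Adcy5, chr16:35154614-35154913, plus strand: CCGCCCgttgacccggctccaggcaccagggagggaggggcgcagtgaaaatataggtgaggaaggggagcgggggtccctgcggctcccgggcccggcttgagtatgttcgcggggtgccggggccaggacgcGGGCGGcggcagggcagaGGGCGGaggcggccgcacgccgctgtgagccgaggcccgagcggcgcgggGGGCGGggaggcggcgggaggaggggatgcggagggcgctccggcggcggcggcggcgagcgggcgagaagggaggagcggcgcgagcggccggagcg

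The windows have little in common. The GC share was 42.3% and 71.3% in the windows of Adra1b, 54.3% in that of Grk5 and 79.0% in that of Adcy5, against a median of 52.7% over 32851 windows. The first Adra1b window held 3 matches to the CCAAT box and the second 2 to the GC box, the Grk5 window held 0 matches to any of the 5 motifs, and the Adcy5 window held 4 to the GC box. Of all windows 37.4% hold the CCAAT box, 35.7% the GC box, 20.8% the cAMP response element core, 13.6% the TATA box and 7.15% the E-box. The cAMP response element core, the E-box and the TATA box were in none of these 4 windows, which says only that these letters are absent there.

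Adra1b encodes the alpha-1B receptor, which couples to Gq. Its probe stood at 6.34 in AAC + DAPA, 6.14 in AAC and 7.68 in sham (log2 expression). Both constricted hearts were thus low and close to each other, and the sham heart was high. Compared with sham, Adra1b was 2.91-fold lower in AAC (difference −1.54, log2) and 2.53-fold lower in AAC + DAPA (−1.34). Among all 19505 genes, 71 lay at least as far below sham in AAC, and 66 in AAC + DAPA. Between AAC + DAPA and AAC the difference was 0.20 (log2), or 1.15-fold, under the threshold.

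Grk5 encodes a receptor kinase that phosphorylates stimulated adrenergic receptors, is held at the membrane by phospholipid, and can also enter the nucleus of the myocyte. It stood at 10.10 in AAC + DAPA, 9.84 in AAC and 11.78 in sham (log2 expression). The order was the same as for Adra1b, with the sham heart above both others. Grk5 was 3.84-fold below sham in AAC (−1.94, log2) and 3.20-fold below sham in AAC + DAPA (−1.68). In AAC 37 of the 19505 genes lay at least as far below sham, and in AAC + DAPA 29 did. AAC + DAPA differed from AAC by 0.26 (log2), or 1.20-fold.

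Adcy5 and Adcy6 encode the main adenylyl cyclases of the cardiac myocyte, both of which are inhibited by calcium. Adcy5 stood at 8.28 in AAC + DAPA, 7.71 in AAC and 7.87 in sham (log2 expression), so that the AAC + DAPA heart was the highest. It lay just inside the threshold, 1.48-fold above AAC (0.57, log2), and 1.33-fold above sham (0.41). With the arrays centred on their medians the first of these differences was 0.64, past 1.5-fold, and by quantile normalization Adcy5 passed as well. Adcy6 stood at 11.62 in AAC + DAPA, 11.83 in AAC and 11.55 in sham. Its differences were 1.16-fold lower for AAC + DAPA against AAC, 1.21-fold higher for AAC against sham and 1.05-fold higher for AAC + DAPA against sham, the smallest span of the 4 genes (0.28, log2).

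**Figure D1:**
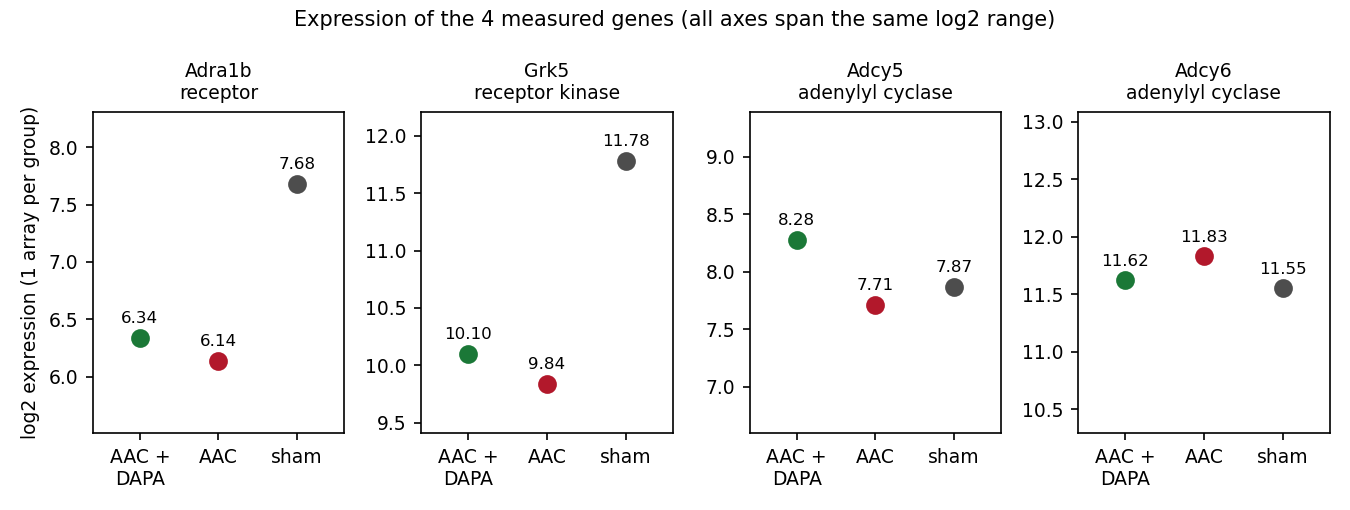
Log2 expression (vertical axis) of Adra1b, Grk5, Adcy5 and Adcy6 on the AAC + DAPA, AAC and sham arrays, 1 point per array and no error bars because each group has 1 array. Adra1b and Grk5 are highest in sham (7.68 and 11.78), while Adcy5 is highest in AAC + DAPA (8.28) and Adcy6 in AAC (11.83).

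Counted together, 2 of the 4 genes were lower and 0 were higher in AAC than in sham, where 4.98% of all genes were lower and 4.88% higher. In AAC + DAPA against sham the count was again 2 lower and 0 higher, against 3.38% of all genes lower and 3.22% higher. Both counts concern the same genes, Adra1b and Grk5, and both use the same sham array. The gene list was chosen with earlier results of these data known, so the counts are no test. In AAC + DAPA against AAC 0 of the 4 were higher or lower, against 4.16% and 4.18% of all genes. The median difference of the 4 was −0.85 (log2) for AAC against sham, 0.23 for AAC + DAPA against AAC and −0.64 for AAC + DAPA against sham, while the median over all genes was 0 in each. All 4 genes stood above the median level of the arrays, and among such genes the share lower in AAC than in sham was 8.19%. For 55 genes with more than 1 probe, the difference had an SD of 0.31 (log2) between the probes of the gene for AAC against sham, 0.26 for AAC + DAPA against AAC and 0.19 for AAC + DAPA against sham. This SD compares the probes of a gene on the same 2 arrays, so it leaves out the spread between animals. The 4 genes have 1 probe each and are not among the 55. The differences of Adra1b and Grk5 from sham were larger than these SDs. Between AAC + DAPA and AAC their differences, 0.20 and 0.26, were of the size of the SD or below. That of Adcy5 was 0.57, above the SD.

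**Figure D2:**
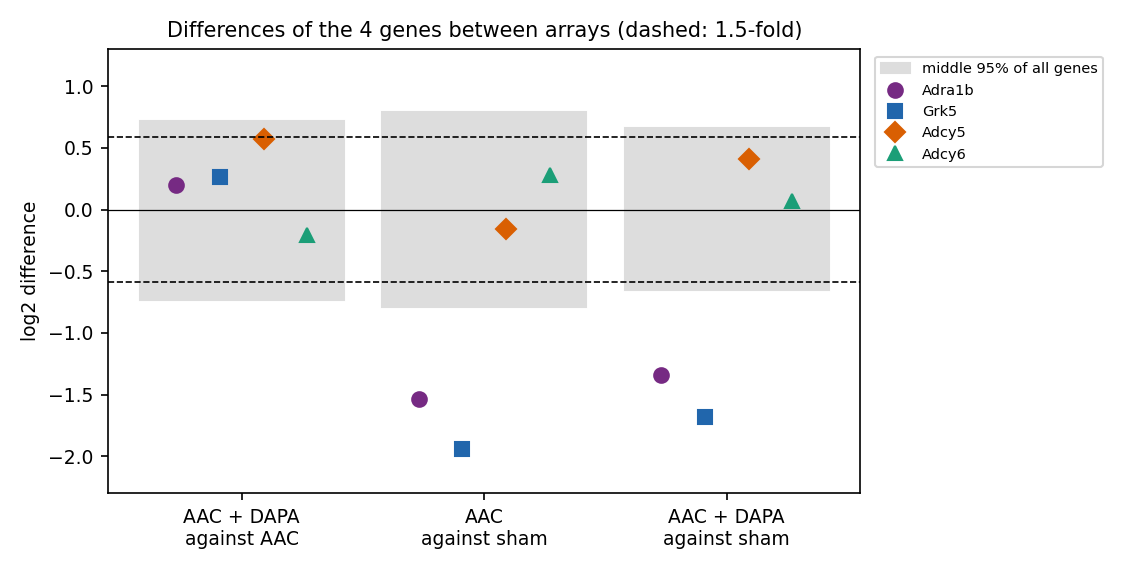
Log2 difference (vertical axis) of the 4 genes in the 3 comparisons, 1 symbol per gene, with the middle 95% of all 19505 genes as a grey box and 1.5-fold as dashed lines. Adra1b and Grk5 lie below the box for AAC against sham (−1.54 and −1.94, where the box ends at −0.79) and for AAC + DAPA against sham (−1.34 and −1.68, where it ends at −0.65), and all 4 lie inside it for AAC + DAPA against AAC.

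The sham heart stood at least 1.5-fold above both other hearts for Adra1b and Grk5, as it did for 334 of 19505 genes (1.71%). The genes whose 3 values were most like theirs were named by the distance between patterns, each gene centred on its own mean, over 3 arrays and the 13964 genes above the 25th percentile that remain without predicted and clone-named genes. Next to Adra1b were Cish, an inhibitor of cytokine signalling (distance 0.07, log2), Unc45b, a chaperone of myosin in striated muscle (0.11), and Speer4e (0.12). Next to Grk5 were Scn4b, a beta subunit of the sodium channel (0.04), the tubulin Tuba4a (0.19) and the matrix protein Spon2 (0.21). With 3 arrays many genes share a pattern, and the distances are a description only.

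The other adrenergic receptors were mostly not covered, with 1 of 5 measured. Adra2c, an alpha-2 receptor, was listed at 2.74 (log2) on all 3 arrays, under the 5th percentile of each (3.02 to 3.03). Of 6 other receptor kinases and arrestins 5 were measured. Grk4, a kinase known mainly from the testis and the kidney, stood at 6.62 in AAC + DAPA, 5.82 in AAC and 6.80 in sham, 1.97-fold below sham in AAC and 1.74-fold above AAC in AAC + DAPA. It was thus low in the AAC heart alone, unlike Grk5. Grk3, the close relative of Grk2, stood at 5.94 in AAC + DAPA, 6.06 in AAC and 5.47 in sham, and was 1.51-fold above sham in AAC, just past the threshold. Grk6 and the visual kinase Grk1 lay within 1.5-fold in all 3 comparisons, as did beta-arrestin Arrb1, which stood at 6.52 in AAC + DAPA and 7.10 in AAC and in sham, a difference of 1.49-fold.

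All 8 other adenylyl cyclases were measured. Adcy9, a widely expressed cyclase that forskolin hardly activates, stood at 6.55 in AAC + DAPA, 5.91 in AAC and 6.20 in sham, 1.56-fold above AAC in AAC + DAPA, the same order of the hearts as for Adcy5. Adcy8, a calcium-stimulated cyclase, was at 2.80 in AAC + DAPA and 2.74 in AAC, under the 5th percentile of both arrays, and at 3.52 in sham, so that no fold is given although it was counted as lower. The remaining 6 lay within 1.5-fold in the 3 comparisons. Beyond Adcy5 and Adcy6, the cyclases thus gave 1 call in AAC against sham (Adcy8), 1 in AAC + DAPA against AAC (Adcy9) and 1 in AAC + DAPA against sham (Adcy8 again). In either direction 9.86%, 8.34% and 6.6% of all genes were called in these comparisons.

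The phosphodiesterases, which break cAMP down, were the longest of the pathway lists. Of 15 measured, 6 were lower and 1 was higher in AAC than in sham, 4 lay below sham and 1 above it in AAC + DAPA, and AAC + DAPA against AAC gave 1 higher and 1 lower. The shares of all genes were 4.98% lower and 4.88% higher for AAC against sham, and 3.38% lower and 3.22% higher for AAC + DAPA against sham. For AAC + DAPA against AAC they were 4.16% higher and 4.18% lower. The median of the list was −0.09, −0.08 and 0 (log2) in these comparisons. Pde4a, of the family that controls cAMP near beta receptors, stood at 9.11 in AAC + DAPA, 9.15 in AAC and 10.29 in sham, and Pde4b at 9.95, 9.98 and 11.09 in the same order of groups. Both were lower in the constricted hearts, Pde4a by 2.27-fold in AAC + DAPA and 2.20-fold in AAC, and Pde4b by 2.20-fold in AAC + DAPA and 2.16-fold in AAC, with less than 0.05 (log2) between the 2 constricted hearts. Pde3b, which insulin activates, was 2.10-fold lower in AAC + DAPA and 1.83-fold below sham in AAC. Pde3a, the form that predominates in the cardiac myocyte, stood at 11.80 in AAC + DAPA, 11.78 in AAC and 11.86 in sham, within 1.5-fold. Pde1c, which calcium and calmodulin activate, moved the other way. It stood at 10.78 in AAC + DAPA, 11.96 in AAC and 9.47 in sham, 5.62-fold above sham in AAC, 2.27-fold below AAC in AAC + DAPA, and 2.48-fold above sham in AAC + DAPA. The further calls, Pde2a, Pde7b and Pde8a, were lower in AAC than in sham by 1.71-fold to 1.87-fold.

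Of 13 measured effectors of cAMP, 3 were lower and 1 was higher in AAC than in sham, and in AAC + DAPA against sham 1 was lower and 1 was higher. Among all genes 4.98% were lower and 4.88% higher in AAC than in sham, and 3.38% and 3.22% in AAC + DAPA than in sham. The catalytic subunit Prkaca stood at 14.03 in AAC + DAPA, 14.04 in AAC and 14.05 in sham. The regulatory subunit Prkar2a was 1.59-fold below sham in AAC, and Pkia, an inhibitor of PKA, was 1.69-fold higher in AAC + DAPA and 1.55-fold above sham in AAC. Popeye proteins bind cAMP at the membrane of the myocyte. Bves, which encodes POPDC1, stood at 12.57 in AAC + DAPA, 11.82 in AAC and 13.24 in sham, 2.68-fold below sham in AAC and 1.68-fold above AAC in AAC + DAPA. Popdc3 was 1.75-fold below sham in AAC, and Popdc2 was listed at 16.53 on all 3 arrays.

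Anchoring proteins hold PKA beside its substrates. Of 12 measured, Akap1, which brings PKA to mitochondria, was 1.92-fold lower in AAC + DAPA and 2.10-fold below sham in AAC, and Akap11 was 1.75-fold above sham in AAC. Of 11 cardiac substrates of PKA, Hspb6, a small heat shock protein, stood at 17.43 in AAC + DAPA, 16.40 in AAC and 17.37 in sham, and was low in the AAC heart alone (2.04-fold above AAC in AAC + DAPA). Rrad, the brake on the L-type calcium channel that PKA releases, stood at 12.67 in AAC + DAPA, 13.28 in AAC and 13.91 in sham, lowest in the treated heart (2.36-fold lower than sham). Mybpc3, myosin-binding protein C, was 1.53-fold higher in AAC + DAPA and 1.72-fold above sham in AAC. Phospholamban (Pln), the ryanodine receptor Ryr2 and the channel Cacna1c differed by at most 0.17 (log2) between any 2 hearts. In AAC against sham 1 anchoring protein was lower and 1 higher, and 2 substrates were lower and 1 higher. The shares of all genes were 4.98% lower and 4.88% higher, and 3.38% and 3.22% in AAC + DAPA against sham.

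Below the alpha-1 receptors 11 genes were measured, and 1 passed 1.5-fold. In either direction 9.86% of all genes passed in AAC against sham. The share was 8.34% in AAC + DAPA against AAC and 6.6% in AAC + DAPA against sham. Rcan1, an inhibitor of calcineurin whose shorter form calcineurin itself induces, stood at 10.91 in AAC + DAPA, 10.93 in AAC and 13.01 in sham, 4.29-fold lower in AAC + DAPA and 4.23-fold below sham in AAC. The G protein subunits Gnaq and Gna11 were each listed at the same value on the 3 arrays (8.87 and 11.00). Of 9 genes of catecholamine synthesis, uptake and breakdown, Ddc, which decarboxylates DOPA, was the only one past 1.5-fold, at 4.42 in AAC + DAPA, 6.33 in AAC and 5.01 in sham. Th and Dbh, which make noradrenaline in sympathetic nerves, stood at 3.90 to 4.25 on the 3 arrays. Of 4 measured receptors that couple to inhibitory G proteins, among them the muscarinic receptor Chrm2 (8.80 in AAC + DAPA, 8.64 in AAC and 8.41 in sham), 0 passed 1.5-fold.

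Over these 10 lists, which name 101 further genes, 89 were measured. The lists were chosen with earlier results of these data known, so an excess over all genes cannot be read as a test. On the AAC array 15 of the 89 (16.9%) lay below sham by the threshold and 6 (6.74%) above, against 4.98% and 4.88% of all genes. In AAC + DAPA against sham 10 (11.2%) were lower and 3 (3.37%) higher, against 3.38% and 3.22%. In AAC + DAPA against AAC 5 (5.62%) were higher and 3 (3.37%) lower, against 4.16% and 4.18%. The median difference of the 89 genes was −0.02, −0.02 and 0 (log2) in these comparisons, and the median of all genes was 0. Of the 89, 63 lay above the median level, where calls are more frequent. Among these 63, 14 were lower and 5 higher in AAC than in sham, against 8.19% and 6.64% of all genes above that level. In AAC + DAPA against sham 8 were lower and 3 higher, against 5.02% and 4.82%.

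**Figure D3:**
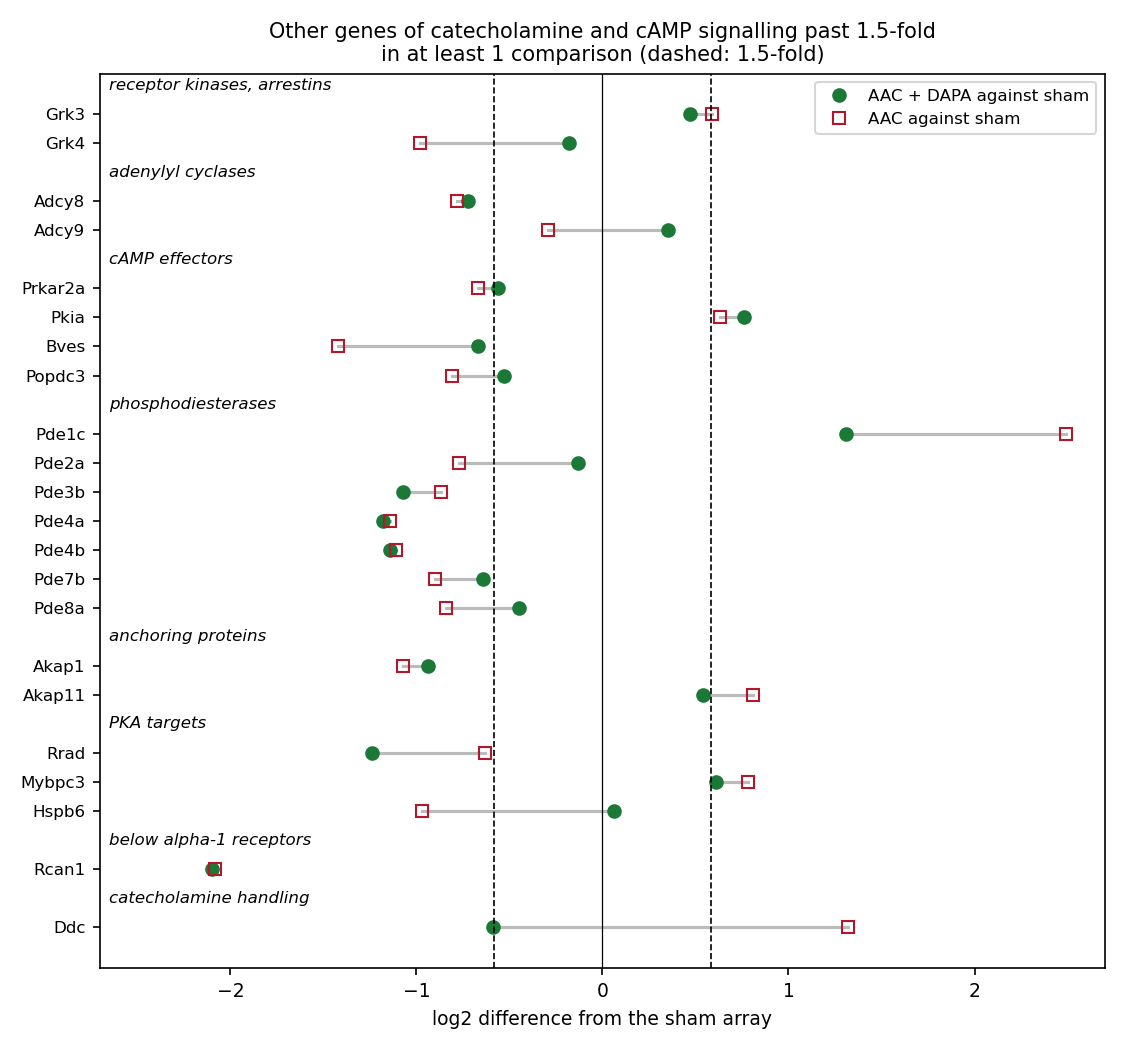
Log2 difference from the sham array (horizontal axis) for the 22 further genes that passed 1.5-fold in at least 1 of the 3 comparisons, grouped by role, with AAC + DAPA as filled circles, AAC as open squares and 1.5-fold as dashed lines. Rcan1, Pde4a and Pde4b are lower in both constricted hearts by nearly the same amount, while Pde1c is higher in both. Pde1c, Hspb6, Grk4 and Ddc are among the genes that differ by 1.5-fold or more between the AAC and AAC + DAPA hearts.

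The lists of cell type and state markers were read beside these values. For each count against sham below, the share of all genes was 4.98% lower and 4.88% higher in AAC. It was 3.38% lower and 3.22% higher in AAC + DAPA. In whole heart RNA, fewer cells of a type and less RNA per cell cannot be told apart. Of 12 cardiac myocyte markers 1 was lower in AAC than in sham and 1 in AAC + DAPA than in sham (Actc1 in both), with a mean level of 17.78 in AAC + DAPA, 17.69 in AAC and 17.81 in sham (log2), so that the heart label holds on every array. Of 8 genes that respond to pressure load, 5 were higher and 0 lower than sham in AAC + DAPA (median 2.01, log2), and 5 were higher and 1 lower in AAC (median 0.89). Nppa, which encodes atrial natriuretic peptide, was higher by 5.07 in AAC + DAPA and 3.53 in AAC, and Myh7 by 2.39 in AAC + DAPA and 2.28 in AAC. Skeletal actin Acta1 was higher than sham by 1.62 in AAC + DAPA and lower by 1.37 in AAC. Xirp2 and Postn lay within 1.5-fold in both. Adipocyte and nerve markers, whose cells also carry adrenergic receptors or release their ligand, had few calls against sham, namely Lipe, Cidea and Hand2. Several others lay under the 25th percentile of the arrays (3.81 to 3.85), among them Adipoq (2.89 to 3.33), Ucp1 (3.32 to 3.36) and S100b (2.93 to 3.14). Few calls at such low values say little about these cells. Lipe, Cidea and Hand2 stood higher, at 6.47 to 9.75, and whole heart RNA does not tell which cells they come from. Of 9 white adipocyte markers 1 was lower than sham in AAC + DAPA and 1 in AAC (medians 0 and −0.01, log2), of 9 brown adipocyte markers 0 and 1 (medians −0.15 and −0.03), and of 8 nerve markers 1 and 1 (medians 0 and 0.01). Of 10 smooth muscle markers, whose cells carry alpha-1 receptors, 1 (Acta2) was lower and 2 were higher in AAC than in sham, and the same counts held in AAC + DAPA against sham. Acta2, which encodes smooth muscle actin, was lower by 3.12 (log2) in AAC + DAPA and 5.17 in AAC. Myh11, smooth muscle myosin, was higher by 0.63 in AAC + DAPA and 0.91 in AAC. The median of the list was 0 in AAC + DAPA and 0.10 in AAC, so that Acta2 does not stand for the list. Of 9 fibroblast markers 2 were lower than sham in AAC + DAPA (median −0.22, log2) and 3 in AAC (median −0.38), and their mean level was 10.40 in AAC + DAPA, 10.42 in AAC and 10.83 in sham. The collagen gene Col3a1 was lower by 1.63 in AAC + DAPA and 1.11 in AAC, and the proteoglycan gene Lum by 0.73 in AAC + DAPA and 0.89 in AAC. Pcolce was lower by 0.89 in AAC but by only 0.05 in AAC + DAPA. The other fibroblast markers lay within 1.5-fold of sham, with Col1a1 equal in AAC and sham, and Dcn higher by 0.19 in AAC + DAPA and 0.29 in AAC. Genes of the circadian clock, the longest marker list with all 17 measured, had the most calls against sham of the marker lists in both constricted hearts. Against sham, 11 of them were higher and 5 lower in AAC + DAPA, and 9 higher and 5 lower in AAC. Their mean level was 8.86 in AAC + DAPA, 8.51 in AAC and 8.04 in sham (log2), with Dbp higher than sham by 3.98 in AAC + DAPA and 3.92 in AAC, and Arntl, which encodes the clock activator BMAL1, lower by 3.56 in AAC + DAPA and 4.49 in AAC. The part of the pressure load, smooth muscle, fibroblast and clock genes in the difference of Adra1b and Grk5 was not tested.

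Other lists set the AAC heart apart. Of 11 macrophage markers 8 stood above sham in AAC, and 8 stood below AAC in AAC + DAPA, with a mean level of 7.46 in AAC + DAPA, 8.35 in AAC and 7.37 in sham, and 3 of 5 red blood cell markers moved likewise. The Y-linked Eif2s3y was at 2.72 in AAC + DAPA, 11.71 in AAC and 2.50 in sham, although all mice are labelled male. In comparisons with the AAC array, those of Adra1b and Grk5 as well as those of Grk4, Hspb6, Pde1c and Ddc, this difference and the condition cannot be told apart. Of 8 Y-linked genes 4 stood above sham by the threshold on the AAC array. On the other arrays, also labelled male, Eif2s3y lay under the 5th percentile (3.02 on each). Kdm5d stood there at 2.81 in AAC + DAPA and 2.97 in sham, and Uty at 2.96 and 3.09. Whether the Y-linked difference has a part in the values of Adra1b and Grk5 was not tested. In AAC + DAPA against sham Adra1b and Grk5 differed by −1.34 and −1.68 (log2). That comparison rests on 1 array each and on the same sham array, and its cause was not tested.

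**Figure D4:**
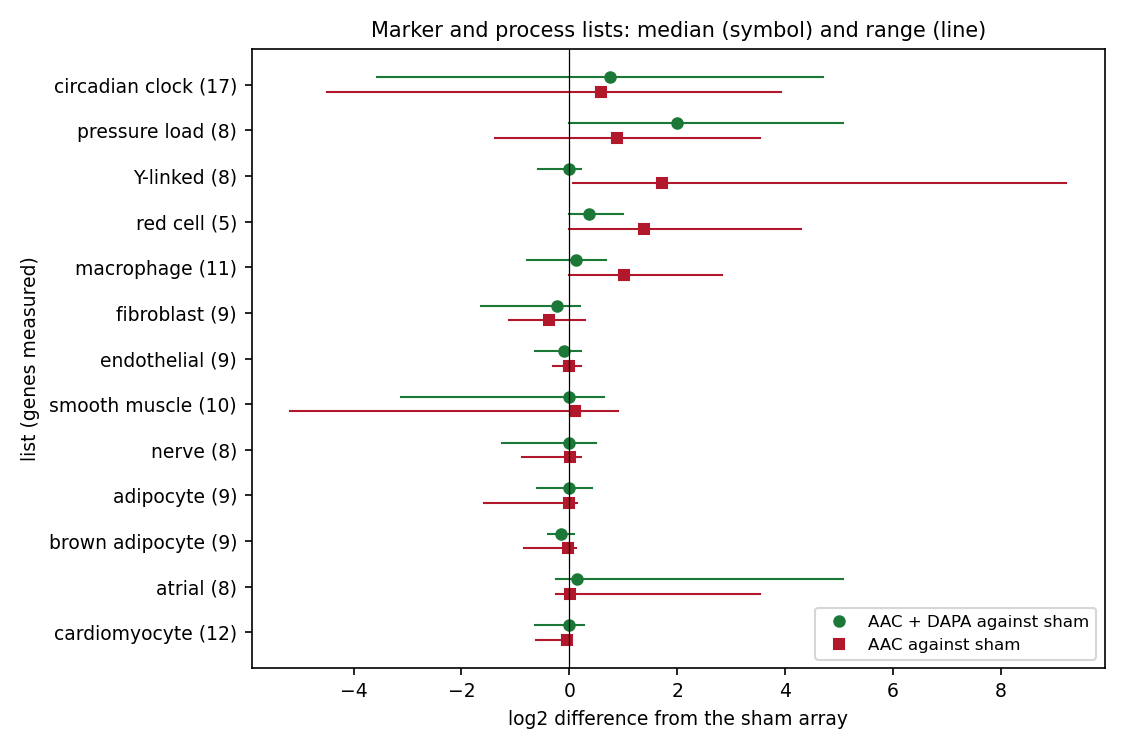
Median (symbol) and range (line) of the log2 difference from the sham array (horizontal axis) for 13 marker and process lists, with the number of genes measured, for AAC + DAPA as circles and AAC as squares. Clock and pressure load genes differ from sham in both constricted hearts, Y-linked, macrophage and red blood cell genes in AAC, and the median of the cardiac myocyte markers lies near 0 in both.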

How the data were processed

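Heart RNA of 3 groups was measured on 3 Affymetrix arrays, 1 per group, and samples were grouped by their treatment label. The authors deposited log2 expression values, already normalized, 1 per probe. Affymetrix Expression Console is the software in the submitters' processing notes, and the study names a GeneChip PrimeView array, made for human genes, although the deposited probes name mouse genes. The study refers normalization to a standard protocol of Agilent Technologies, and the sources used here give no normalization or summary method by name. Of 22206 probes 19572 name exactly 1 gene, which gave 19505 genes as means over probes. The number of arrays limits the precision, since there are no replicates and the depth of a count does not apply.

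Differences of log2 values were called at 1.5-fold or more with no filter on low values, and folds are 2 to the power of the difference. The 8 genes and the gene lists were chosen with earlier results of these data known. Besides the 4 measured genes, up to 4 genes with the largest difference per list were named, with others named as partners or exceptions, and Pde2a, Pde7b and Pde8a and the genes within 1.5-fold were named after their values were seen. Gene positions and promoters came from RefSeq tables (GRCm38.p6), and older symbols were updated through them. Functions were tested on simulated arrays. Alternatives were median centring, quantile normalization, the highest probe, a 2-fold threshold, filters on level, and leaving out genes of the X and Y chromosomes, the last chosen after seeing the data. Scripts ran in Python 3.11.15 (numpy 2.4.6, pandas 2.3.3, matplotlib 3.10.9).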

Additional observations from a re-analysis of the deposited data

How the results depend on the processing

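Adra1b and Grk5 stayed at least 1.5-fold and at least 2-fold below sham in AAC and in AAC + DAPA with median centring and with quantile normalization. Over these scalings, the difference of Adra1b ranged from −1.60 to −1.54 (log2) in AAC and from −1.34 to −1.32 in AAC + DAPA, and that of Grk5 from −2.0 to −1.94 and from −1.68 to −1.67. The choice of probe, the filters on level and leaving out genes of the X and Y chromosomes could not change the values of the 4 genes, which have 1 probe each, lie above the median level and are on other chromosomes. The count for AAC + DAPA against AAC was 0 as reported, 1 with the arrays centred on their medians and 1 by quantile normalization, each time Adcy5, which lies at 0.57 where the threshold is 1.5-fold. Centring shifted all genes between these arrays by 0.07 (log2), and 5.57% of all genes were then higher and 3.20% lower, against 4.16% and 4.18% as reported. With a 2-fold threshold, the count over the further genes of the pathway was 7 for AAC against sham, 3 for AAC + DAPA against AAC and 6 for AAC + DAPA against sham, fewer because the threshold is stricter. At 1.5-fold, those higher in AAC than in sham numbered 6 as reported, 4 with median centring and 5 by quantile normalization. Those lower numbered 15, 15 and 14. No paired analysis was possible because each group has 1 array. One probe per gene, 1 array per group and the unstated normalization limit every value, and a probe does not tell which transcript of Adra1b or Grk5 it reads.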

Other observations

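Many deposited values repeat between arrays to 2 decimals. Of 22206 probes 51.9% carry the same value on at least 2 arrays, with AAC + DAPA equal to sham and different from AAC for 16.2%, AAC equal to sham and different from AAC + DAPA for 11.2%, and AAC + DAPA equal to AAC and different from sham for 9.71%. Adra1b, Grk5, Adcy5 and Adcy6 had 3 different values each. On all 3 arrays 14.8% of the probes carry 1 value, as do 12 of the 89 further genes (13.5%), namely Adra2c, Popdc2, Pde1b, Pde8b, Pde11a, Akap6, Akap13, Tnni3, Gnaq, Gna11, Maoa and Oprk1.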
